A study of Mus musculus with 8 samples.

Results

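Very long genes expressed in neurons were followed in the ventral midbrain of mice that carry 1 mutant allele of Ercc1. The list names 34 genes chosen for the length of the gene in the genome, with earlier results of these data known. Of these, 33 matched a row of the deposited table, of 15285 genes in all. Auts2 was not matched and is not analysed here. RNA from the ventral mesencephalic area was compared between 4 Ercc1 delta/+ samples and 4 wild type samples. Both genotypes had the same mixed FVB:C57BL/6J background and a regular diet; age and sex are not given in the labels. Whether every library came from its own animal is not stated, so p-values here reflect variation among these libraries only, part of which may be technical. Library totals ran from 18271978 to 31204701 counts.

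Most of a very long gene is intron, so RNA polymerase must travel through far more DNA than the finished messenger RNA (mRNA) holds, and a lesion anywhere on that path can stop it. ERCC1 is the partner of the nuclease XPF, which cuts the damaged strand in nucleotide excision repair, the pathway that also clears lesions that stall the polymerase. In brain, many genes of this size encode adhesion molecules, receptors and scaffolds of synapses, and several (Fhit, Wwox, Immp2l, Lrp1b and Dmd among them) lie at known fragile sites of the genome. The comparison asked whether the levels of these transcripts are lower with 1 mutant Ercc1 allele, beside a trend with mRNA length that runs through the whole data set. Poly(A) RNA gives the amount of finished transcript and does not measure the polymerase on the gene.

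In the annotation the 33 genes span from 458 kb (Gphn) to 2271 kb (Ptprd), with a median of 1244 kb against 25.0 kb for all genes tested, and 28 span 1000 kb or more. Their mRNAs are not alike: they run from 981 bases (Fhit) to 16294 bases (Lrp1b), with a median of 4793 bases against 3005 for all genes. Span and mRNA length can therefore be looked at separately in this list. The row that stands for a gene can also belong to a transcript shorter than the gene, as for Nrg1 (100.5 kb of a gene of 1069 kb), Dab1 (377 of 1125 kb), Lsamp (613 of 2197 kb) and Ptprd (649 of 2271 kb). The row's own transcript covers at least 500 kb for 30 of the 33.

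Cntnap2 and Macrod2 offer a view of distance within 1 gene, because the table holds a row for a long and a row for a short transcript of each. Sequences around start sites are shown, and for Cntnap2 they place the short and long transcripts relative to each other. They are RefSeq windows of 300 bases on build GRCm38.p6, plus strand, from 250 bases before the start to 50 after, with each CG dinucleotide in capitals. The long Cntnap2 transcript starts in chr6:45059811-45060110 and the short one in chr6:47244146-47244445, 2184 kb further along, near the end of the gene. The Macrod2 window is chr2:140395185-140395484. It is labelled below as a shared start, but the values here do not give the start of the short Macrod2 transcript, which covers 27.5 kb.
Cntnap2 long transcript start: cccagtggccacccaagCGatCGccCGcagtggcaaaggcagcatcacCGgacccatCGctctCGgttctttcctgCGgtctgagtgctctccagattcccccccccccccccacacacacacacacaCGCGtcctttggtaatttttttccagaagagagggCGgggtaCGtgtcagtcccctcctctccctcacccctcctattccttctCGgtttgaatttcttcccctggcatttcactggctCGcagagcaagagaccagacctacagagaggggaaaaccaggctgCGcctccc
Cntnap2 short transcript start: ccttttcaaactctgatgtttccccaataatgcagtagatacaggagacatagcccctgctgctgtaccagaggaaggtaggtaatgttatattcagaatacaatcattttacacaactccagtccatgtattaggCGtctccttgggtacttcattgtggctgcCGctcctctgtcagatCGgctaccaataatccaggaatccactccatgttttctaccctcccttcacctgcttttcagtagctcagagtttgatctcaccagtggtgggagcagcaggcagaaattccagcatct
Macrod2 shared start: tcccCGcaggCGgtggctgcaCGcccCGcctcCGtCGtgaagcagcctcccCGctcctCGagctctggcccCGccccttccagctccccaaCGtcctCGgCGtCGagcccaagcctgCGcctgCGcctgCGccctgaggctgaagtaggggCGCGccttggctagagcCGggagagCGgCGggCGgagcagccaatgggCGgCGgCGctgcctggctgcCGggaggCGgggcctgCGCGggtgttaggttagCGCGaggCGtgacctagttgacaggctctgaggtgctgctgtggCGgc
The search for the letters CG found 14 in the long Cntnap2 window, 3 in the short one and 33 in that of Macrod2. A CG is present in 94.6% of all 32851 promoter windows of this length, with a median of 7 per window; the 40 windows of the 24 members that the promoter table covers have a median of 12.

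The targeted gene is given first as a check of the labels. Ercc1 held between 10.2 and 12.9 CPM (counts scaled to the library total) in Ercc1 delta/+ and between 13.8 and 15.4 CPM in wild type, so each library lay on the side its label gives. Its log2 fold change was -0.34 (SE 0.10), short of the 0.05 threshold (edgeR quasi-likelihood, Benjamini-Hochberg adjusted p = 0.114).

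The very long genes were not lower as a group in Ercc1 delta/+. Of 33 members, 27 had log2 fold changes above 0 and 6 below, where 49.5% of all genes tested were positive. The median of the members was 0.11 on the log2 scale, against a median of 0.00 over the 15000 genes tested. By edgeR's quasi-likelihood test with Benjamini-Hochberg adjustment none of the 33 passed 0.05, and 0.0467% of all genes did. At an unadjusted p of 0.05, 6 members were higher and 0 lower; over all genes 9.03% were higher and 9.57% lower at that level. With DESeq2, 2 members passed, both higher, which is 6.06% of 33; of all genes DESeq2 called 6.93%, with 3.36% higher and 3.57% lower. Limma-voom called 0 members and 0.347% of all genes. All 4 mutant libraries lay above all 4 wild type libraries for 3 members, and below them for 0. Over all genes tested these shares were 5.18% and 6.86%.

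**Figure D1:**
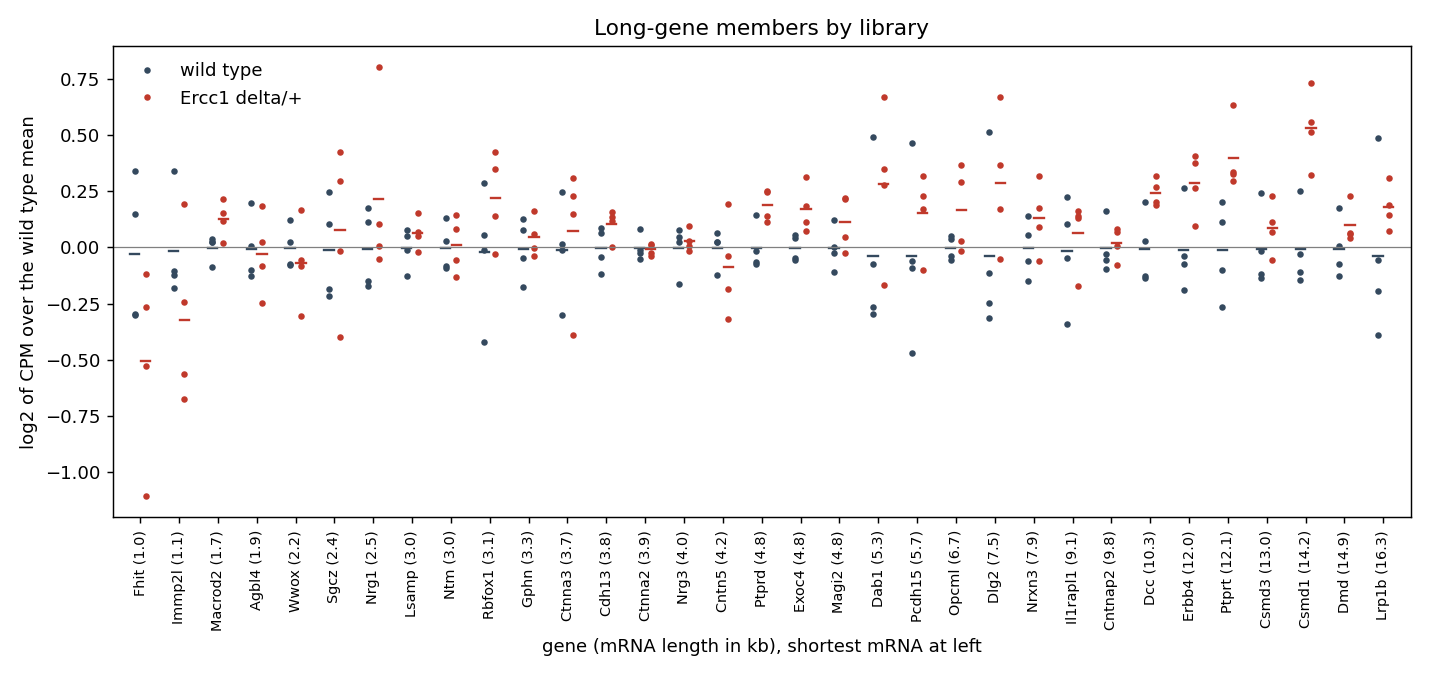
Each point is the level of 1 member in 1 library, as log2 of CPM over the wild type mean (vertical axis), with genes ordered by mRNA length and short bars at the group means; red is Ercc1 delta/+ and dark blue wild type. Csmd1, Ptprt and Exoc4 show no overlap between groups, and Fhit and Immp2l at the far left have the lowest mutant means relative to wild type.

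The precision of these values limits how large a fall could have gone unseen in single genes. The intervals still include the trend with mRNA length, so they do not bound a fall apart from that trend. Each interval is for 1 gene alone, without adjustment for the number of genes. The 95% interval of the log2 fold change lay above 0 for 6 members and below 0 for 0. Its lower limit was above -0.20, a reduction of 12.9%, for 24 of the 33, and above -0.50, a reduction of 29.3%, for 31. The other 2 were Fhit (lower limit -1.01) and Immp2l (-0.80), which had the lowest counts of the list.

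The CSMD proteins and LRP1B are huge single-pass membrane proteins; CSMD1 carries complement control domains and LRP1B belongs to the LDL receptor family. Csmd1, with a gene of 1643 kb and an mRNA of 14182 bases, stood at 74.1, 65.8, 55.8 and 63.9 CPM in mutant replicates 1 to 4 and at 40.4, 41.3, 43.7 and 53.1 CPM in wild type replicates 1 to 4. The lowest mutant library was above the highest wild type library, by a small margin. Its log2 fold change of 0.54 (SE 0.11) was the highest of the list and missed the threshold of the edgeR quasi-likelihood test (adjusted p = 0.0664). DESeq2 gave 0.00108 after adjustment, and over all alternatives the log2 fold change ran from 0.31 to 0.63. In the authors' deposited table, Csmd1 had a log2 fold change of 0.50 and an adjusted p of 0.00925, and it was the 1 member past 0.05 there, where 1.97% of all genes tested passed. The related Csmd3 had a value of 0.09 (SE 0.10), with 47.4 ± 3.85 CPM in mutants, against 44.4 ± 5.62 CPM in wild type (n = 4 each, SD). Lrp1b had a value of 0.18 (SE 0.17); its 54.6 ± 3.76 CPM in mutants lay inside the wide wild type range of 36.8 to 67.5 CPM. Leaving out wild type replicate 2 gave 0.07, and leaving out replicate 4 of that group gave 0.39.

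PTPRD and PTPRT are receptor-type tyrosine phosphatases, and IL1RAPL1 is a postsynaptic adhesion protein that binds PTPRD across the synapse. Ptprt (1139 kb, mRNA 12082 bases) stood at 77.9, 63.2, 62.8 and 61.6 CPM in mutant replicates 1 to 4 and at 41.7, 57.7, 46.8 and 54.3 CPM in wild type. The groups did not overlap, and mutant replicate 1 was far above the other 3. The log2 fold change of 0.41 (SE 0.12) did not pass the quasi-likelihood test (adjusted p = 0.116) and did with DESeq2 (adjusted p = 0.0290). Ptprd held 237, 256, 255 and 233 CPM in mutants, against 205, 205, 238 and 213 CPM in wild type. Only wild type replicate 3 reached into the mutant range, and the value was 0.19 (SE 0.07, adjusted p = 0.204 by the quasi-likelihood test). Il1rapl1 had the lowest level per length of the list in wild type, 0.601 CPM per kb of mRNA, at percentile 8.25 of all genes tested. Its libraries held 6.13, 4.87, 6.01 and 6.04 CPM in mutants, against 4.32, 5.90, 5.31 and 6.40 CPM in wild type, which overlap throughout (log2 fold change 0.07, SE 0.15).

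The neuregulins NRG1 and NRG3 are ligands of the receptor kinase ERBB4, DCC is the netrin receptor that guides axons, and DAB1 passes on the Reelin signal. All 5 members of this group had positive values, with a median of 0.25 and none past the threshold. Dcc (1097 kb) held 38.5, 35.5, 35.2 and 37.1 CPM in mutants, against 28.1, 28.3, 31.5 and 35.6 CPM in wild type; wild type replicate 4 alone reached the mutant range. Its log2 fold change was 0.24 (SE 0.09, adjusted p = 0.186 by the quasi-likelihood test). Erbb4 (1076 kb) held 30.4, 24.5, 27.5 and 29.8 CPM in mutants, against 20.1, 21.8, 22.3 and 27.6 CPM in wild type. Wild type replicate 4 was again the highest of its group, and the value was 0.29 (SE 0.11). The ligand gene Nrg3 had a value of 0.03 (SE 0.07), at 37.4 ± 1.24 against 36.6 ± 2.68 CPM (SD, n = 4 each). Nrg1, measured through a transcript of 100.5 kb, had means of 7.89 against 6.59 CPM and a value of 0.25 (SE 0.20) that was 0.02 without mutant replicate 2, which held 11.5 CPM. Dab1 had a value of 0.31 (SE 0.21), at 70.1 ± 16.3 CPM in mutants, against 56.5 ± 15.6 CPM in wild type (n = 4 each, SD). Its value was 0.17 without mutant replicate 1, 0.52 without wild type replicate 2 and -0.0037 with a term for the 4 shallowest libraries.

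Among scaffold and trafficking genes, all 6 values were positive and none passed. EXOC4 is a subunit of the exocyst, which tethers vesicles to the membrane. Exoc4 (725 kb) held 63.2, 69.2, 60.2 and 58.6 CPM in mutants, against 57.3, 57.7, 53.5 and 53.9 CPM in wild type, with no overlap but close edges (log2 fold change 0.17, SE 0.07). Dlg2, which encodes the postsynaptic scaffold PSD-93, held 397, 321, 240 and 281 CPM in mutants, against 210, 356, 230 and 201 CPM in wild type. The groups overlapped widely, and mutant replicate 1 and wild type replicate 2 were the highest (0.31, SE 0.21). The value was 0.17 without mutant replicate 1, 0.54 without wild type replicate 2 and 0.04 with a term for the 4 shallowest libraries. Dmd, the gene of dystrophin and at 2257 kb the second longest of the list, stood at 67.0 ± 4.17 CPM in mutants, against 62.4 ± 5.88 CPM in wild type (n = 4 each, SD), a value of 0.10 (SE 0.08). The synaptic scaffold gene Magi2 had a value of 0.12 (SE 0.08), at means of 95.2 against 87.7 CPM. Gphn, which encodes the anchor of inhibitory receptors, had a value of 0.05 (SE 0.08), at means of 75.1 against 72.7 CPM. The sarcoglycan gene Sgcz, at 2.94 ± 0.709 against 2.72 ± 0.426 CPM (SD, n = 4 each), had a value of 0.11 (SE 0.21).

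Of the 10 adhesion genes 8 were positive and none passed the threshold, with a median of 0.08. OPCML, NTM and LSAMP are IgLON proteins, small adhesion molecules anchored in the neuronal membrane. Opcml held 166, 175, 134 and 138 CPM in mutants, against 139, 141, 132 and 131 CPM in wild type, so mutant replicates 1 and 2 stood above the rest and replicates 3 and 4 did not (0.18, SE 0.09). Ntm had a value of 0.01 (SE 0.08), at means of 104 against 103 CPM, and Lsamp of 0.06 (SE 0.07), at 73.5 against 70.3 CPM. Cdh13, a cadherin without a cytoplasmic tail, held 74.3, 67.6, 73.3 and 75.5 CPM in mutants, against 62.3, 70.6, 65.5 and 71.9 CPM in wild type, which overlap (0.11, SE 0.07). Cntnap2, the gene of the neurexin-family protein CASPR2, had a value of 0.02 (SE 0.07), at 155 ± 7.65 against 152 ± 12.6 CPM (SD, n = 4 each). Its 95% interval ran from -0.14 to 0.19. The alpha-catenin gene Ctnna2 stood at 147 ± 2.64 and 148 ± 6.08 CPM (SD, n = 4 each), a value of -0.01 (95% interval -0.13 to 0.12), the narrowest interval of the list. The presynaptic adhesion gene Nrxn3 had a value of 0.14 (SE 0.10), at means of 241 against 219 CPM. The contactin gene Cntn5 had a value of -0.08 (SE 0.12), at 8.49 against 8.95 CPM. The remaining pair were the protocadherin gene Pcdh15, with 0.16 (SE 0.18; 0.03 without wild type replicate 2 and 0.36 without replicate 4) at 24.7 against 22.1 CPM, and the catenin gene Ctnna3, with 0.09 (SE 0.19) at 3.00 against 2.80 CPM.

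The last group holds nuclear proteins and enzymes, with 4 negative values among its 6 matched members and none past the threshold. Fhit, which encodes a hydrolase of dinucleoside polyphosphates, held 1.25, 2.49, 2.24 and 1.88 CPM in mutants, against 2.20, 3.42, 2.99 and 2.20 CPM in wild type. The groups overlapped, and the log2 fold change of -0.45 (SE 0.25) was the lowest of the list. Immp2l, a subunit gene of the mitochondrial inner membrane peptidase, had a value of -0.28 (SE 0.23), at 1.83 ± 0.521 against 2.23 ± 0.400 CPM (SD, n = 4 each). The oxidoreductase gene Wwox had a value of -0.06 (SE 0.10), at means of 23.4 against 24.4 CPM, and the carboxypeptidase gene Agbl4 of -0.03 (SE 0.12), at 8.30 against 8.43 CPM. Macrod2, which encodes an enzyme that removes ADP-ribose from proteins, held 17.6, 18.8, 16.4 and 18.0 CPM in mutants, against 16.5, 16.6, 16.5 and 15.2 CPM in wild type. Mutant replicate 3 alone fell in the wild type range (0.13, SE 0.08). Rbfox1, a neuronal splicing regulator, had the highest level per length, 67.9 CPM per kb in wild type. It held 265, 279, 204 and 229 CPM in mutants, against 216, 254, 206 and 155 CPM in wild type, which overlap (0.23, SE 0.15; 0.12 without wild type replicate 4 and 0.05 with a term for the 4 shallowest libraries).

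Fhit and Immp2l, the 2 lowest values, belong to the shortest mRNAs of the list, and Csmd1 and Ptprt, the 2 highest, to mRNAs of 14182 and 12082 bases. Across the 33 members, as a description only, log2 fold change had a Spearman coefficient of 0.531 with mRNA length, of 0.148 with gene span and of -0.086 with the span of the row's own transcript. Over 14734 genes tested with both lengths known these were 0.395, 0.235 and 0.240, and span and mRNA length themselves had a coefficient of 0.572. Of the 25 members with an mRNA above the median of all genes 23 were positive, with a median of 0.14. Of the 8 with a shorter mRNA 4 were positive, with a median of 0.02.

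**Figure D2:**
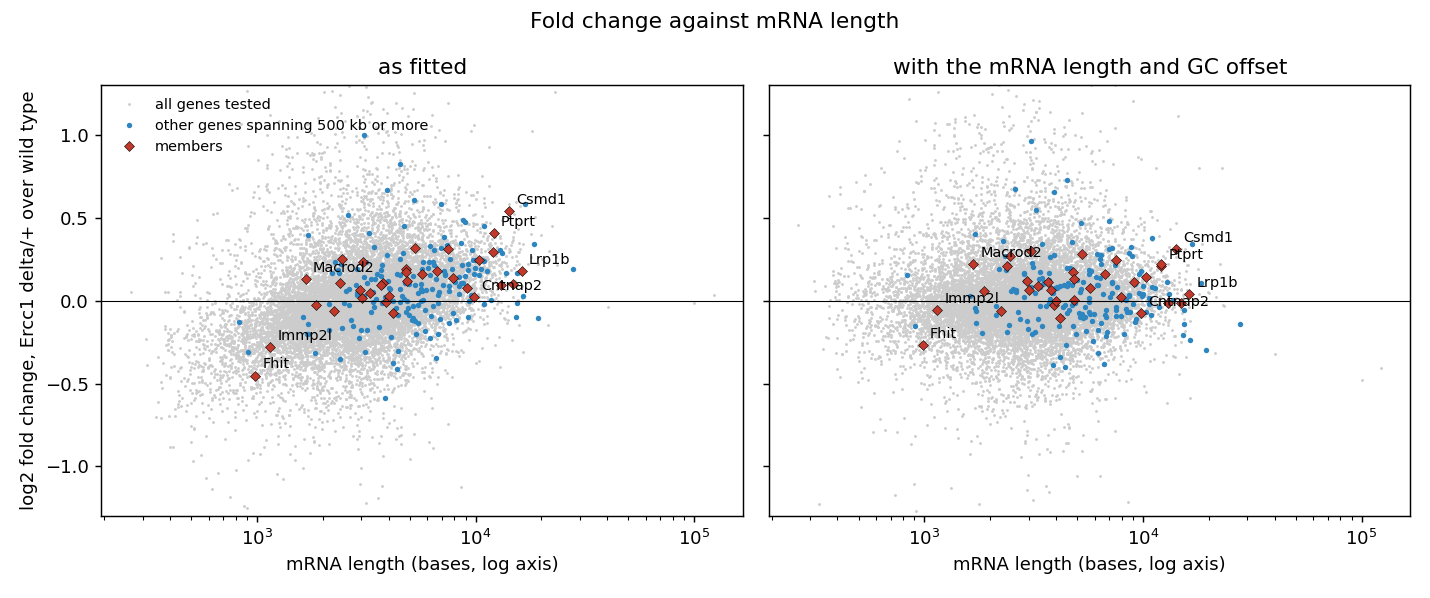
Each point is a gene, with mRNA length (log axis) across and the log2 fold change of Ercc1 delta/+ over wild type upward; red diamonds are members, blue points other genes spanning 500 kb or more and grey points all genes tested, and genes beyond the vertical range are not drawn. At left, as fitted, members follow the upward trend from Fhit to Csmd1; at right, with the offset for mRNA length and GC content, their median is 0.09.

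An offset fitted in each library over mRNA length and GC content removed most of the trend with mRNA length, leaving a coefficient of 0.0762 over all genes. With it, 24 of 33 members were positive, where 50.8% of all genes tested were, and the median of the members was 0.09 against 0.00 over all genes. The median of the 25 members with a longer mRNA was 0.09 and that of the 8 with a shorter one was also 0.09. Fhit then had a value of -0.27 and Immp2l of -0.06, Csmd1 of 0.31, Ptprt of 0.21 and Macrod2 of 0.22. None of the 33 passed the quasi-likelihood test with the offset, and at an unadjusted p of 0.05 there were 4 higher (Csmd1, Macrod2, Erbb4 and Ptprd) and 0 lower. In that fit 0.00667% of all genes passed after adjustment, and 6.07% were higher and 4.91% lower at an unadjusted p of 0.05.

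Over all genes the trend with span was set beside that with mRNA length by 1 regression per library, of each gene's deviation in log2 CPM on log2 span, log2 mRNA length and GC content. The slope with span was 0.0034, 0.0124, 0.0046 and -0.00093 per doubling of span in mutant replicates 1 to 4 and -0.0037, -0.00098, -0.0093 and -0.0055 in wild type replicates 1 to 4. Every mutant value lay above every wild type value, mutant replicate 4 by a hair, so longer genes were higher rather than lower relative to shorter ones. The means differed by 0.0097 (0.0049 ± 0.0055 against -0.0049 ± 0.0035, SD, n = 4 each). An exact permutation test, two-sided, gave p = 0.0286, which is the lowest value possible with 4 against 4, and 0.0286 after adjustment over the 2 slopes. The difference amounts to 2.27% per 10-fold of span. The slope with mRNA length differed by 0.116 (0.0581 ± 0.0446 against -0.0581 ± 0.0169, SD, n = 4 each; exact permutation p = 0.0286), or 30.7% per 10-fold of mRNA length.

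**Figure D3:**
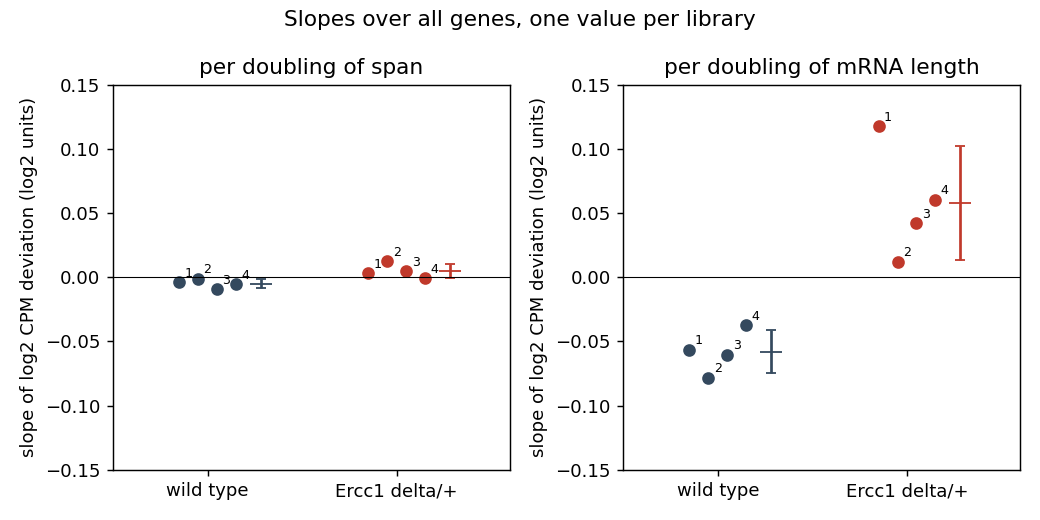
Slopes of log2 CPM deviation per doubling of gene span (left) and of mRNA length (right), 1 numbered point per library, with group means and SD bars beside them, on the same vertical scale. The span slopes of both groups lie between -0.0093 and 0.0124, while those with mRNA length run from -0.0784 to 0.118.

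The call on the span slope turned on single choices. In an exact permutation test of 4 against 4 libraries, the lowest possible p is 0.0286 and the next is 0.0571. With 1 library left out, groups that do not overlap can also give 0.0571. The span slope missed the threshold among genes of at least 1 CPM (exact permutation, adjusted p = 0.0571), among genes of at least 10 CPM (exact permutation, adjusted p = 0.0571) and after the lowess offset (exact permutation p = 0.0571), with the same sign each time. Leaving out mutant replicate 2 or any 1 wild type library also lost the call (exact permutation, adjusted p = 0.0571 to 0.0857, with a difference of 0.0071 to 0.0104). With both slopes adjusted together, the adjusted p of the mRNA length slope was 0.0571 in those same subsets, where the difference stayed between 0.111 and 0.132.

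All genes were also grouped by span and by mRNA length. Among long mRNAs (over 3898 bases) the median log2 fold change was 0.06 for genes under 10 kb, 0.12 for genes of 100 to 300 kb and 0.11 for the 33 genes over 1000 kb. Among short mRNAs (up to 2288 bases) the medians were -0.11 for genes under 10 kb, -0.07 for those of 100 to 300 kb and -0.14 for the 37 genes of 300 to 1000 kb. With the offset this last class had a median of -0.04, and the 319 genes of that span with long mRNAs of 0.04. The classes over 1000 kb hold only 6 short and 16 middle mRNAs, and 28 of their 55 genes in all are members.

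**Figure D4:**
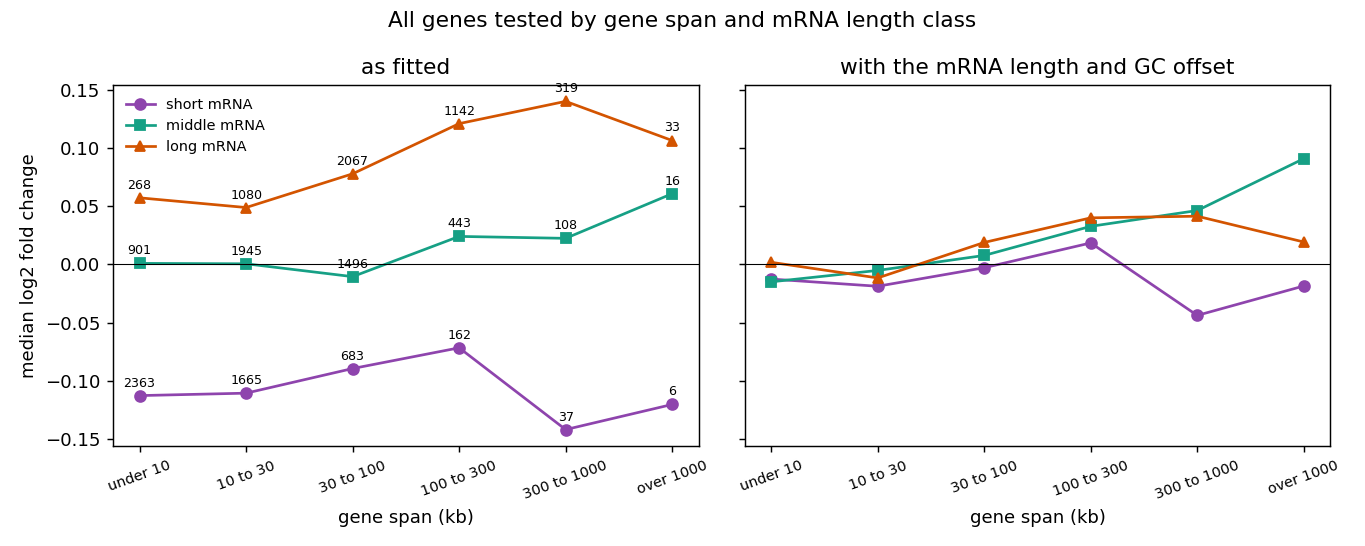
Median log2 fold change (vertical axis) of all genes tested in classes of gene span (horizontal axis, kb), with a line for each mRNA length class and, at left, the number of genes at each point. The lines are set apart by mRNA length at left and lie closer together with the offset at right, less so in the longest span classes. At right the medians at 300 to 1000 kb are -0.04 for short, 0.05 for middle and 0.04 for long mRNAs.

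Long genes outside the list gave a comparison not chosen by hand. There were 179 other genes tested that span at least 500 kb; 114 were positive and 65 negative, with a median of 0.07 (0.03 with the offset, and 0.04 without mutant replicate 1). None passed the quasi-likelihood test after adjustment and 0 passed with limma-voom. DESeq2 called 15 (10 higher, 5 lower), or 8.38%, against 6.93% of all genes. At an unadjusted p of 0.05 in the quasi-likelihood test 22 were higher (12.3%, against 9.03% of all genes) and 9 lower (5.03%, against 9.57%). With the offset 102 of the 179 were positive. At the same unadjusted level 11 were then higher and 7 lower, where 6.07% and 4.91% of all genes were. On the higher side the smallest p-values belonged to Epha6, an ephrin receptor gene (0.67, SE 0.12), to the transcription factor gene Zbtb20 (1.00, SE 0.19), to Slit3, a guidance ligand gene (0.61, SE 0.16), and to the calcium release channel gene Ryr2 (0.58, SE 0.15). On the lower side they belonged to the glycosyltransferase gene Mgat4c (-0.59, SE 0.10), to Kcnip4, a potassium channel partner (-0.35, SE 0.09), to the peptidase gene Cpq (-0.31, SE 0.09) and to Lhfpl3 (-0.31, SE 0.09). Their adjusted p-values in the quasi-likelihood test ran from 0.0504 (Mgat4c) to 0.110 (Lhfpl3).

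Within Macrod2 and Cntnap2 the rows of short and long transcripts, chosen for this after seeing the data, could be set side by side. A fit was made with every transcript as its own row. In it the Macrod2 transcript that covers 1989 kb stood at 12.5 ± 0.695 CPM in mutants, against 11.5 ± 0.469 CPM in wild type. The one that covers 27.5 kb stood at 5.57 ± 0.384 and 5.63 ± 0.200 CPM (SD, n = 4 each). The short row held 45.8%, 37.7%, 49.1% and 45.7% of the count of the long row in mutants and 48.0%, 48.1%, 50.0% and 49.6% in wild type. The log2 ratio differed by -0.14 (exact two-sided permutation p = 0.0857, 0.514 after adjustment over 6 ratios), and by -0.06 without mutant replicate 2 and -0.19 without mutant replicate 3 (exact permutation p = 0.0286 without adjustment). The mean ratio of short to long was thus lower in mutants, not higher, but short of the threshold. For Cntnap2 the short row, which covers 59.8 kb at the far end of the gene, held 51.3%, 47.4%, 53.6% and 51.5% of the long row in mutants and 50.6%, 54.4%, 53.8% and 51.7% in wild type. The ranges overlapped (log2 ratio -0.05, exact permutation p = 0.343). The Cntnap2 rows share exons and the Macrod2 rows may do so, so the same reads can count for both rows of a gene. The mRNA of the short row is longer for Macrod2 (3552 against 1669 bases) and shorter for Cntnap2 (6279 against 9827 bases). The rows of a shorter or longer transcript of Magi2, Rbfox1 and Dab1 had log2 ratios that differed by -0.0008 to 0.034 between genotypes.

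**Figure D5:**
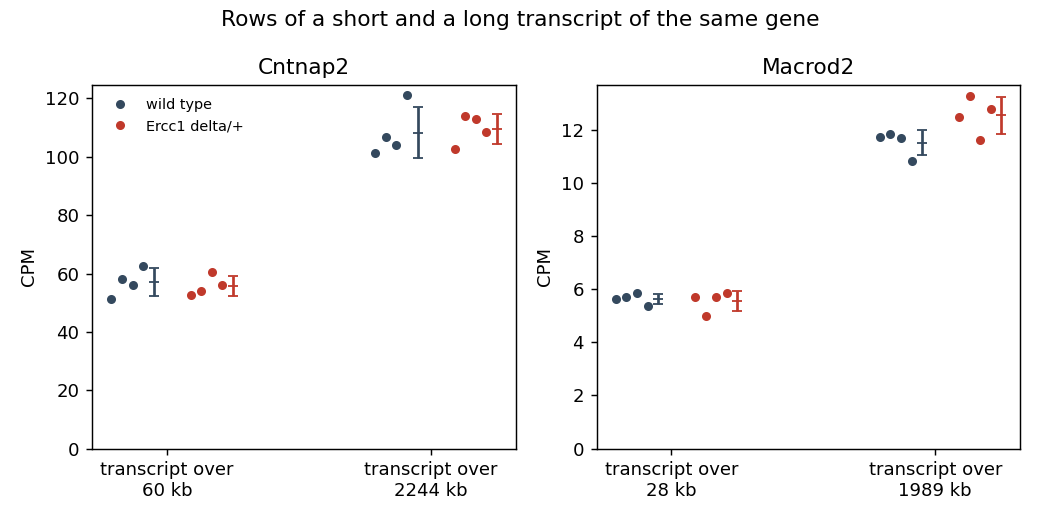
CPM (vertical axis, from 0) of the rows of a short and a long transcript of Cntnap2 (left) and Macrod2 (right), 1 point per library with group means and SD bars. The long Macrod2 row is at 12.5 CPM in Ercc1 delta/+ and 11.5 CPM in wild type, and the short row at 5.57 and 5.63 CPM.

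Relatives of the members and the machinery of transcript elongation were looked at as 2 further lists. Of 56 tested relatives, many in much shorter genes, 38 were positive with a median of 0.09 (0.02 with the offset). None passed the quasi-likelihood test after adjustment. At an unadjusted p of 0.05, 14 were higher (25% of the list, against 9.03% of all genes) and 2 lower (3.57%, against 9.57%). With the offset 3 were higher and 0 lower at that level, where 6.07% and 4.91% of all genes were. DESeq2 called 5 (8.93%, against 6.93% of all genes) and limma-voom 0. The smallest p-values were those of Immp1l, Ptprs, Ptprk and Cntnap5a. Immp1l, the partner of Immp2l, has a gene of 60.9 kb and an mRNA of 955 bases (-0.59, SE 0.12). The phosphatase gene Ptprs spans 64.1 kb (0.25, SE 0.07, and 0.04 with the offset). Ptprk (0.33, SE 0.09) and Cntnap5a (0.45, SE 0.13) span 523 and 903 kb, so they are also among the long genes outside the list. With the offset they were at 0.28 and 0.38. Immp1l and Immp2l, with spans of 60.9 and 931 kb, both had negative values, which were -0.22 and -0.06 with the offset. Neither passed the quasi-likelihood test, and the part of span was not tested. Of 27 tested elongation and long-gene factors, 18 were positive, with a median of 0.10 (0.04 with the offset). None passed that test after adjustment. Without adjustment 6 were higher (22.2%, against 9.03% of all genes) and 3 lower (11.1%, against 9.57%). With the offset 4 were higher and 1 lower at that level. DESeq2 called 3 (11.1%, against 6.93% of all genes) and limma-voom 1 (Aff1). Aff1, a scaffold of the super elongation complex, had a value of 0.76 (SE 0.11, adjusted p = 0.0504 by the quasi-likelihood test). The elongation factor genes Tcea1 (-0.26, SE 0.07) and Supt4a (-0.39, SE 0.12), with mRNAs of 2547 and 706 bases, and Ercc8 (-0.29, SE 0.10), part of the ubiquitin ligase that acts at stalled polymerase, had negative values.

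The levels of several members moved between libraries with markers of tissue next to the midbrain. The per-library medians of the members, as deviations of log2 CPM from the mean of the 8 libraries, were 0.09, 0.14, -0.00 and 0.02 in mutant replicates 1 to 4 and -0.08, -0.03, -0.07 and -0.03 in wild type. All 5 forebrain glutamatergic markers used (Slc17a7, Neurod6, Neurod2, Tbr1, Emx1) had positive log2 fold changes, none past the test and none at 0, and their summed level ran from 248 to 793 CPM in mutants, against 99.7 to 501 CPM in wild type. They were highest in mutant replicates 1 and 2 (793 and 760.5 CPM) and wild type replicate 2 (501 CPM), the libraries in which Dlg2, Dab1 and Rbfox1 were also high, and lowest in wild type replicate 4, where Rbfox1 and Dlg2 were lowest. The 8 astrocyte markers were high in the same 3 libraries, at a sum of 5370, 5112 and 5282 CPM, against 3414 to 4024 CPM in the other 5. The 5 striatal markers were highest in mutant replicate 1 and wild type replicate 2 (689 and 826 CPM) and ran from 102 to 365 CPM in the others. Lrp1b, Pcdh15 and Csmd3 ran the other way, at their wild type highest in replicate 4 (67.5, 30.5 and 52.5 CPM) and lowest in replicate 2 (36.8, 15.96 and 40.4 CPM). Depth also differed: mutant replicates 1, 2 and 4 and wild type replicate 2 were the 4 shallowest libraries, and with a term for them the median of the members was 0.0772. The part of the forebrain, astrocyte and striatal markers and of depth in these values was not tested, and in bulk tissue fewer cells of a type and less RNA per cell cannot be told apart. Of 7 markers of oligodendrocyte precursors, 6 were positive, with a median of 0.22 (0.05 with the offset). Their summed level was 333 to 386 CPM in mutants, against 280 to 302 CPM in wild type. At an unadjusted p of 0.05, 3 were higher (42.9%, against 9.03% of all genes). With the offset 4 were positive and 1 was higher at that level, where 6.07% of all genes were. For 3, every mutant library was above all wild type libraries (5.18% of all genes). None passed the quasi-likelihood test after adjustment. DESeq2 called 2, both higher (3.36% of all genes), and limma-voom 1 (0.347% of all genes). The part of these markers was not tested either. Of 14 pan-neuronal markers 8 were positive and 6 negative, with a median of 0.03. At an unadjusted p of 0.05, 0 of them were higher and 4 lower (28.6%, against 9.57% of all genes). With the offset 9 of the 14 were positive, with a median of 0.05, and 0 were higher and 0 lower at that level. Their median mRNA length was 2094.5 bases, against 3005 for all genes. For 2 of the 14, every mutant library was below all wild type libraries (6.86% of all genes). DESeq2 called 1 of the 14, lower (3.57% of all genes). Their summed level was of 9053 to 11355 CPM in mutants, against 8410 to 10388 CPM in wild type. All 8 choroid plexus markers were positive, 6 of them at an unadjusted p of 0.05 (75%, against 9.03% of all genes higher). None of the 8 passed the quasi-likelihood test after adjustment, and DESeq2 called 3, all higher (3.36% of all genes). Their summed level was 72.5 to 1139 CPM in mutants, against 60.0 to 154 CPM in wild type. It was highest in mutant replicate 3, where the median of the members was the lowest of the mutants, and its part was not tested. Of the other lists, 3 of 8 astrocyte, 4 of 5 striatal, 2 of 9 oligodendrocyte and 4 of 8 microglial markers were positive. So were 3 of 6 endothelial, 3 of 3 GABAergic and 2 of 8 dopaminergic markers. None in these lists passed the quasi-likelihood test after adjustment. At an unadjusted p of 0.05, 1 endothelial marker was higher (16.7%, against 9.03% of all genes) and 1 oligodendrocyte marker lower (11.1%, against 9.57%). DESeq2 called 1 endothelial marker, higher (3.36% of all genes), and limma-voom 0. All 8 dopaminergic markers were detected, the lowest being Pitx3 at 0.741 CPM on average.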

How the data were processed

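Poly(A) RNA of 8 ventral midbrain samples was sequenced. The authors deposited raw counts per coding RefSeq transcript, whole numbers in 19931 rows, with TopHat 1.3.1, edgeR and the mm9 build named per the submitters' processing notes; the read counter and its use of strand and of multiply mapped reads are not stated there. The deposited log2 fold changes and p-values are the authors' own comparison.

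Rows were matched to symbols through RefSeq (GRCm38.p6) and GENCODE M21: 19600 matched, and the row of highest total stood for each gene. Genes with identical counts were merged (87), leaving 15285. Gene span, mRNA length and GC content came from GENCODE M21 (GRCm38, not mm9), for 98.17% of genes, so spans may differ slightly from mm9.

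Genotypes were compared by edgeR 4.0.16's quasi-likelihood test (R 4.3.3; TMM, filterByExpr, 15000 genes) with Benjamini-Hochberg adjustment and a threshold of 0.05, two-sided. SE is the estimate over the root of F. Log2 CPM used a prior count of 2. The lowess offset (span 0.3) was fitted per library on genes of mean log2 CPM above 2. Tests were checked on simulated data. Alternatives used DESeq2 1.42.0 and limma 3.58.1, among others. At these depths 3 counts equal 0.0915 to 0.170 CPM, which covers counting error only. No pair of replicates was alike within sampling noise (lowest chi-square per degree of freedom 11.95).

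The members and lists were chosen with earlier results of these data known. Members were named whatever their values, with every library for the 12 of smallest p and for the highest and lowest level per length; outside the list, the 4 genes of smallest p were named in each direction for long genes and in all for each further list. A forebrain marker gene of the original list was left out and is not reported here.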

Additional observations from a re-analysis of the deposited data

Results flagged for a closer look

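Within groups of 4 libraries, 6 of 84 groups examined held 1 library set apart from the other 3 beyond Dixon's critical value; chance flags about 1 group in 20. Ptprt reached 77.9 CPM in mutant replicate 1, against 63.2 CPM in the next library of its group. Dmd reached 73.2 CPM in the same library, against 65.3 CPM in the next. Nrg1 reached 11.5 CPM in mutant replicate 2, against 7.09 CPM in the next. Il1rapl1 was lowest in mutant replicate 2, at 4.87 CPM, against 6.01 CPM in the next. Macrod2 was lowest in wild type replicate 4, at 15.2 CPM, against 16.5 CPM in the next. Immp2l was highest in wild type replicate 2, at 2.82 CPM, against 2.07 CPM in the next.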

How the results depend on the processing

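No member passed the threshold under any alternative except DESeq2 (2: Csmd1 and Ptprt), and the median of the 33 members stayed between 0.0772 and 0.136 over the alternative fits; it was 0.0192 over the 8 members whose mRNA is not longer than the median, a split added after seeing the data. Over all genes, 7 passed, against 33 with RLE size factors, 50 with a stricter filter of 1 CPM, 1039 with DESeq2, 52 with limma-voom, 1 with the length and GC offset, 1 with a term for the 4 shallowest libraries, 4 with every transcript as its own row, and 0 to 320 when 1 library was left out (320 without mutant replicate 2). Among long genes outside the list the count was 0, with 1 under the stricter filter, 15 with DESeq2 and 0 to 1 when 1 library was left out (1 without mutant replicate 2).

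Same-numbered libraries did not deviate together (correlations -0.321, 0.192, 0.00152 and 0.317), so the numbers were not taken as pairs, and mutant replicate 4 alone correlated best with its own number. With the replicate block 0 genes passed, and 0 with the replicate block and the offset together, where the median of long genes outside the list was 0.0198.

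Some members changed sign. The values farthest from 0 among them were those of Dab1 (0.31), Sgcz (0.11), Dmd (0.10) and Csmd3 (0.09). With the offset Cntnap2 was at -0.0739, Csmd3 at -0.0174, Dmd at -0.0171, Nrg3 at -0.00288 and Agbl4 at 0.0592. With the replicate block and the offset these were -0.0761, -0.0181, -0.0158, -0.00048 and 0.0612. With the depth term Ntm was at -0.0783, Gphn at -0.0228, Sgcz at -0.108, Dab1 at -0.00366 and Agbl4 at 0.0325. Leaving out 1 library moved Cntnap2 between -0.00938 and 0.0805, Ntm between -0.0312 and 0.0597, Ctnna2 between -0.0252 and 0.020, Il1rapl1 between -0.0260 and 0.159, Gphn between -0.00775 and 0.0908, Sgcz between -0.0192 and 0.250, Nrg3 between -0.0206 and 0.0560, Wwox between -0.143 and 0.0118 and Agbl4 between -0.0984 and 0.0476. Without a change of sign, leaving out 1 library moved Cdh13 from 0.11 to as low as 0.0682, Dmd between 0.0569 and 0.167, Fhit between -0.574 and -0.289, Immp2l between -0.468 and -0.154, Nrxn3 between 0.0731 and 0.198 and Opcml between 0.109 and 0.237. With the depth term Magi2 was at 0.0299, Macrod2 at 0.0795, Opcml at 0.0942, Lrp1b at 0.357 and Pcdh15 at 0.376. The cause was not tested.

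The span slope differed by 0.0102 among genes of at least 1 CPM, 0.0126 among genes of at least 10 CPM and 0.00765 after the lowess offset, and the mRNA length slope by 0.118 and 0.124 in the first 2; all had p = 0.0571 by the exact permutation test, adjusted over the 2 slopes except after lowess. With 1 library left out the span slope ran from 0.00707 to 0.0113 and the mRNA length slope from 0.0971 to 0.132.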
